A study of Mus musculus with 23 samples.

Results

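Heat shock proteins are chaperones that bind unfolded or newly made proteins and help them fold, and the 10 genes described here encode the main ones of the cytosol and the mitochondria: Hspa1a, Hspa1b, Hspa8, Hsph1, Hsp90aa1, Hsp90ab1, Dnajb1, Hspb1, Hspd1 and Hspe1. They were chosen by gene symbol, by a rule that uses no measured value, but with earlier results of these data known. Of the 10 genes, 8 had a feature on the array, 1 feature each, out of 18688 features with a listed gene and 22575 features in all. Hspa1b and Hsp90ab1 were not analysed here because no listed feature carried their symbol or an older one. Hspa1a and Hspa1b are near-identical genes, so the feature listed as Hspa1a may also bind Hspa1b RNA.

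Liver RNA was taken from 23 female C57BL/6 mice that had inhaled filtered air (8 mice), carbon black (CB, Printex 90, 8 mice) or diesel exhaust particles (DEP, NIST 2975, 7 mice), the particles at 20 mg/m3, for 90 min on each of 4 consecutive days. The sample labels give an age of 12 to 13 weeks and a time of 90 min after exposure, and the methods of the study give 10 to 12 weeks and 1 h. Each array held liver RNA of 1 mouse labelled with Cy5 beside a commercial universal mouse reference in Cy3, always in this dye orientation. All values below are log2 ratios of the liver signal to the reference signal of the same spot after loess normalization within the array. A difference of 1 is a doubling. The loess sets 0 to the trend of features of like brightness on the array, so 0 is not the level of the reference. For Hspd1 in air mouse 50 the ratio was 0.41 here and −0.16 as deposited. Whole liver was used, and hepatocyte markers such as Tat and Cps1 lay far above the reference in every group (mean log2 ratio of 5 measured markers 5.09 in air, 4.93 in CB and 4.83 in DEP mice).

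Most of these genes are switched on by heat shock factor 1, which is held inactive by the chaperones and binds the heat shock element when unfolded proteins take them up. Hspa8, Hsp90ab1, Hspd1 and Hspe1 are also made in unstressed cells, Hspa1a and Hspa1b mainly after stress. In the liver the family is known from fever, oxidative injury and the acute phase response. The question put to the data was whether inhaled particles, which act on the lung first, changed these chaperones in the liver.

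The heat shock element is a row of the triplet gaa and its inverse, each separated by 2 bases of any kind. It was searched on both strands as 2 units (GAANNTTC or TTCNNGAA) and as 3 units (GAANNTTCNNGAA or TTCNNGAANNTTC), and each match of 3 units also holds 2 matches of 2 units. RefSeq promoter windows of the GRCm38.p6 build (250 bases before and 50 after a start) were at hand for 7 of the 10 genes. A match of 2 units lay in a window of 6 of these 7 genes, against 15.1% of all 32851 windows, and a match of 3 units in a window of 3 genes, against 0.603% of all windows. The counts are of genes, which had 10 windows in all, and the shares are of windows, so they are not like for like. The stretches from −160 to −61 of the start are printed here for the stress-inducible Hspa1a, for its partner Dnajb1, for Hspb1 and for the neighbours Hspd1 and Hspe1, because these genes are set side by side between mice further on. They run 5′ to 3′ on the strand of the gene, with the units of each match in capitals.
Hspa1a, chr17:34972217-34972316, minus strand: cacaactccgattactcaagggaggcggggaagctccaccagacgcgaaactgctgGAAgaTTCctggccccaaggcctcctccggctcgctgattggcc
Hspb1, chr5:135887759-135887858, plus strand: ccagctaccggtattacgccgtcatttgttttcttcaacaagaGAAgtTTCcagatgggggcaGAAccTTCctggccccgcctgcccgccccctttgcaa
Hspd1, chr1:55087993-55088092, minus strand: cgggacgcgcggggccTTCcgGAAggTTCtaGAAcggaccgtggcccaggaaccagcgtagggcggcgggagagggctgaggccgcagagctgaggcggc
Hspe1, chr1:55087988-55088087, plus strand: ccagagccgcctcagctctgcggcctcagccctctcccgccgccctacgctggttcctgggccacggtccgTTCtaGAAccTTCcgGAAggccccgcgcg
Dnajb1, chr8:83608015-83608114, plus strand: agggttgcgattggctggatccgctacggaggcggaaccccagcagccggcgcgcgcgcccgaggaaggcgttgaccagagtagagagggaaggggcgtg

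Hspd1 and Hspe1 lie head to head, and 285 bases of their windows are the same DNA read on opposite strands. The row of capitals in both lines is therefore 1 element, which begins at −144 of the Hspd1 start and at −89 of the Hspe1 start. The Hspa1b window (chr17:34959189-34959488) differs from that of Hspa1a in 4 of 300 bases, none of them in the stretch printed. In Hsph1, which has 2 windows, a match of 2 units lay at −54 or −33 of the listed starts, and a match of 3 units lay after both. Neither of the 2 Dnajb1 windows held a match, which says only that these letters are absent from these windows. A match is a sequence description and not a measured binding site.

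No heat shock protein feature was called in any comparison of the exposure groups. At a Benjamini-Hochberg adjusted p under 0.05 in limma, 0 of 8 features passed for CB against air, DEP against air, CB against DEP and both particle groups together against air, and 0 of all 18688 features (0%) passed as well. At an unadjusted p under 0.05 the counts were 0 of 8 for CB against air (5.94% of all features), 1 of 8 for DEP against air (4.82%), 0 of 8 for CB against DEP (3.44%) and 0 of 8 for both particle groups (6.04%). With median centring they were 4 of 8 for CB (23.5% of all features), 3 of 8 for DEP (5.45%) and 4 of 8 for both particle groups (16.2%), and with the array set as a block 2 of 8 for both particle groups (6.61%). No member differed by over 1.5-fold from air after CB (0.583% of all features did) or after DEP (0.658%). No member had groups that did not overlap, against 0.0589% of all features for CB and 0.0107% for DEP.

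The log2 fold change was below 0 for 7 of 8 features after CB (49.8% of all features) and for 6 of 8 after DEP (50% of all features). The median over the 8 members was −0.13 after CB and −0.19 after DEP, where the median over all features was 0.00 in both. Counts below 0 were 6 and 6 with the deposited log2 ratios, 8 and 8 with median centring, which moved the median of all features itself to −0.11 and −0.04, and 5 and 5 with Cy5 signals only. CB against DEP had 2 of 8 below 0 (50.1% of all features). The count after CB was 4 of 8 when air mouse 443 was left out. The 8 features come from the same mice, so their signs are not independent of each other.

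**Figure D1:**
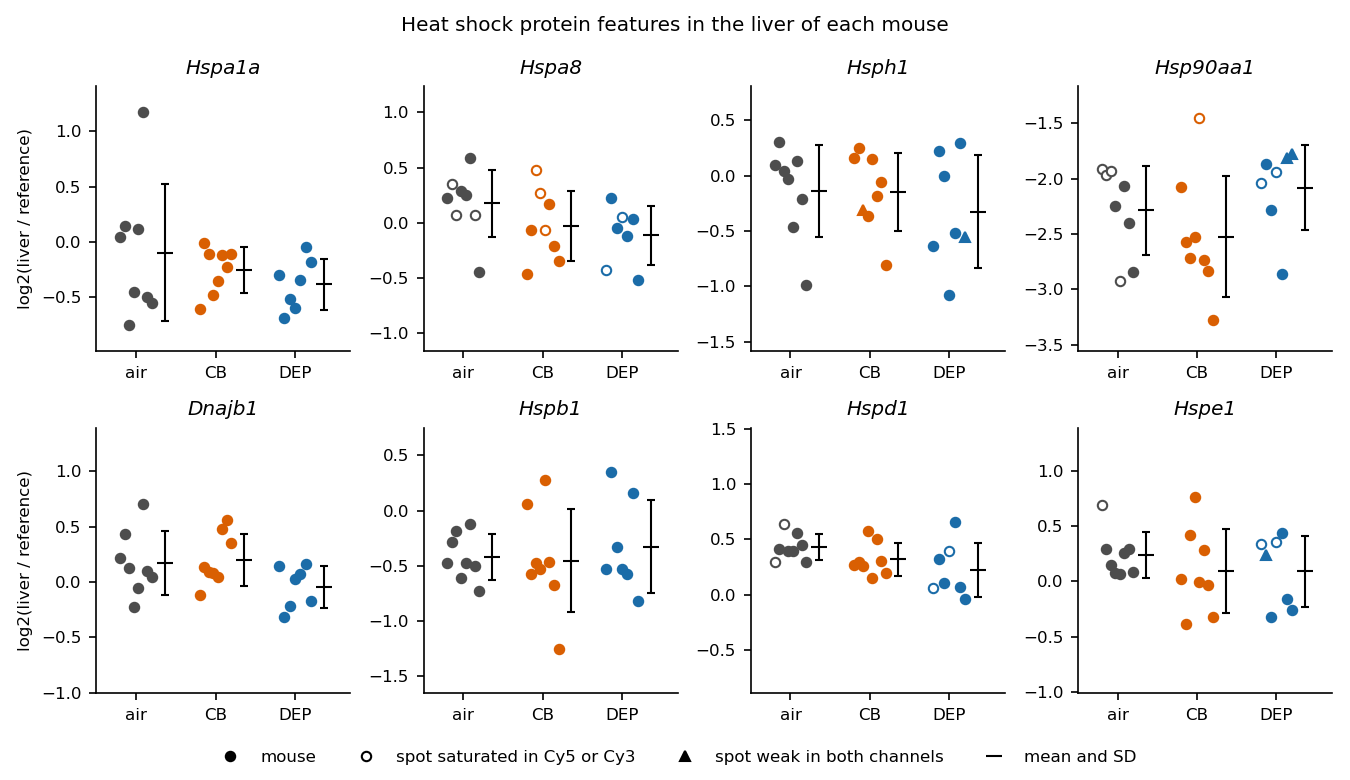
Log2 ratio of liver to reference for the 8 heat shock protein features (vertical axis, each panel spans the same number of log2 units) in each mouse of the air, CB and DEP groups, with the group mean and SD at the right of each group. Open points are spots saturated in Cy5 or Cy3 and triangles are spots weak in both channels. The groups overlapped in all 8 panels, and 1 air mouse stood above the others for Hspa1a.

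**Figure D2:**
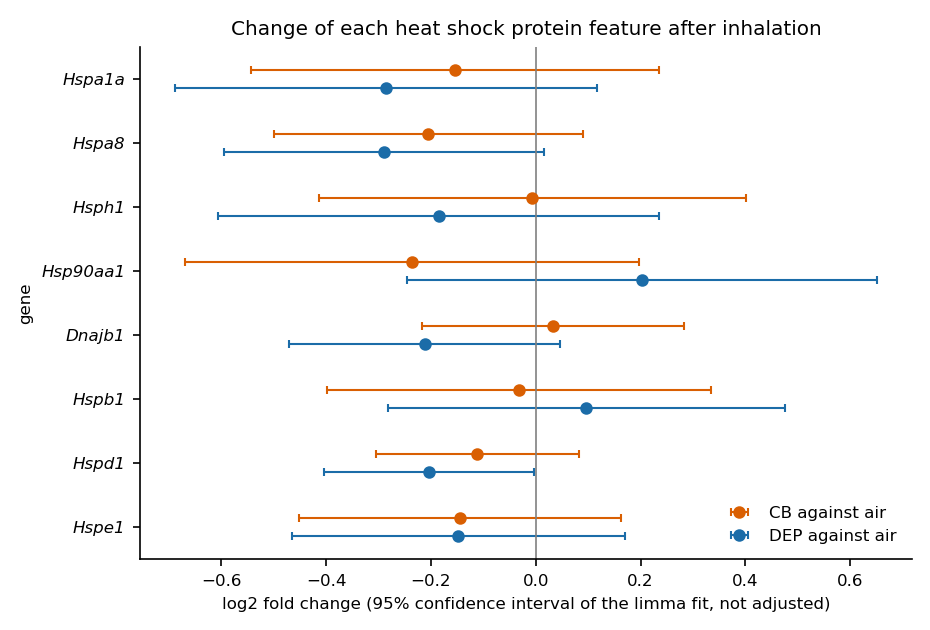
Log2 fold change of each feature (horizontal axis) after CB and after DEP against air, with the 95% confidence interval of the limma fit, not adjusted for the number of features. Hspd1 after DEP is the 1 interval that does not include 0 (−0.40 to −0.00).

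Hspa1a (NM_010479) encodes the stress-inducible cytosolic Hsp70. Its log2 ratio ran from −0.75 over a median of −0.20 to 1.18 in the 8 air mice, from −0.60 over −0.17 to −0.01 in the 8 CB mice and from −0.69 over −0.34 to −0.05 in the 7 DEP mice. The air group was the widest and covered both particle groups, because mouse 443 reached 1.18 and mouse 53 lay at −0.75. The CB mean was −0.15 from air on the log2 scale (standard error, SE, 0.19, limma adjusted p = 0.934), and that of DEP was −0.29 from it (SE 0.20, adjusted p = 0.997). Without mouse 443 the values were 0.03 and −0.10. The feature was dim, with Cy5 signals of 252 to 657 where the median feature of an array had 262 to 549, and its Cy5 spot was flagged absent in 1 DEP mouse.

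Hspa8 (NM_031165) encodes Hsc70, the constitutive relative of Hspa1a. The log2 ratio was 0.18 ± 0.30 (SD, n = 8) in air, −0.03 ± 0.32 (SD, n = 8) in CB and −0.11 ± 0.27 (SD, n = 7) in DEP mice. It ran from −0.45 to 0.59 in air, with 7 of 8 mice above 0, from −0.46 to 0.48 in CB, with 3 of 8 above 0, and from −0.51 to 0.23 in DEP mice, with 3 of 7 above 0. The place of 0 depends on the normalization, and with the deposited ratios most mice of every group lay below 0. All 3 groups overlapped. Hspa8 thus differed from air by −0.21 in CB mice (95% confidence interval −0.50 to 0.09, limma adjusted p = 0.888) and by −0.29 in DEP mice (−0.59 to 0.02, adjusted p = 0.997).

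Hspa8 was bright enough to meet the limit of the scanner in Cy5 on 8 of 23 arrays (3 air, 3 CB and 2 DEP). Left without its saturated spots, the gene differed from air by −0.36 in CB and by −0.26 in DEP mice. The reference channel moved too: after subtraction of the array median, the Cy3 signal of this spot was higher by 0.35 (unadjusted p = 0.0240, adjusted p = 0.9998 from limma) on CB arrays and by 0.29 (unadjusted p = 0.0620) on DEP arrays, although the reference RNA was the same. With the Cy5 signal alone the differences were 0.13 and 0.01, above 0. An unadjusted p under 0.05 in the reference signal was found for 1 of 8 members on CB arrays (2.33% of all features) and 2 of 8 on DEP arrays (2.2%), and 6 of 8 were above 0 on both (51.7% and 53.5%). The part of the reference channel in the Hspa8 ratio was not tested beyond these values.

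Hsph1 (NM_013559) encodes Hsp105, an Hsp110 that exchanges the nucleotide of Hsp70. Its log2 ratio ran from −0.99 over a median of 0.01 to 0.30 in air, from −0.81 over −0.12 to 0.25 in CB and from −1.08 over −0.51 to 0.29 in DEP mice. Each group held mice near 0.3 and mice near or under −0.8, so the ranges overlapped over most of their length. Against air, the CB mean differed by −0.01 (SE 0.20, limma adjusted p = 0.997) and the DEP mean by −0.19 (SE 0.20, adjusted p = 0.997). The spot was weak in both channels on 2 arrays, and without these spots the differences were 0.02 and −0.15.

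Hsp90aa1 (NM_010480) encodes the inducible Hsp90 alpha, which holds kinases, steroid receptors and heat shock factor 1. It was below the reference in 23 of 23 mice. The log2 ratio was −2.29 ± 0.40 (SD, n = 8) in air, −2.52 ± 0.55 (SD, n = 8) in CB and −2.08 ± 0.38 (SD, n = 7) in DEP mice. CB held both the lowest value of all, −3.28 in mouse 835436, and the highest, −1.45 in mouse 445. The CB mean was −0.24 from air on the log2 scale (SE 0.21, limma adjusted p = 0.914), and that of DEP was 0.20 from it (SE 0.22, adjusted p = 0.997), and CB against DEP gave −0.44 (standard error 0.22, unadjusted p = 0.0545, adjusted p = 0.9998).

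The bright channel of Hsp90aa1 was the reference, saturated on 7 of 23 arrays (4 air, 1 CB and 2 DEP), and both channels were weak on 2 DEP arrays. On those 2 arrays the ratios, −1.81 and −1.78, were the highest of the DEP group, and without them the fold change after DEP was 0.09. The reference signal of the feature differed by −1.57 after DEP with these spots and by 0.02 without them, and the Cy5 signal alone, with them, gave −1.65. Within the second exposure round both particle groups differed from air by −0.31, and within the third, with 2 air, 1 CB and 4 DEP mice, by −0.66 and 0.73. The third-round values rest on a single CB mouse and include both weak DEP spots, so no test is drawn from them.

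Dnajb1 (NM_018808) encodes Hsp40, the J-domain protein that delivers substrates to Hsp70. Its log2 ratio was 0.17 ± 0.29 (SD, n = 8) in air, 0.20 ± 0.24 (SD, n = 8) in CB and −0.04 ± 0.19 (SD, n = 7) in DEP mice. The highest DEP mouse, 0.16, lay under the air mean, and 7 of 7 DEP mice were therefore below it. That mean includes air mouse 443 at 0.70, and the lowest air mouse, −0.23, lay among the DEP mice. Against air, the CB mean differed by 0.03 (SE 0.12, limma adjusted p = 0.983) and the DEP mean by −0.21 (SE 0.13, adjusted p = 0.997). Without mouse 443 the difference after DEP was −0.14. The direction after CB turned to −0.26 with median centring.

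Hspb1 (BC018257) encodes Hsp25, a small heat shock protein that holds unfolded proteins without using ATP. The log2 ratio ran from −0.73 over a median of −0.47 to −0.12 in air, from −1.25 over −0.50 to 0.28 in CB and from −0.81 over −0.52 to 0.35 in DEP mice. All 8 air mice were below 0, and 2 mice of each particle group were above it. With the deposited ratios every mouse of each group was below 0. The medians lay close together and the particle groups were wider, with an SD of 0.46 (n = 8) in CB and 0.42 (n = 7) in DEP against 0.21 (n = 8) in air mice, a difference in spread that was not tested. The CB mean was −0.03 from air on the log2 scale (SE 0.18, limma adjusted p = 0.989), and that of DEP was 0.10 from it (SE 0.18, adjusted p = 0.997).

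Hspd1 (NM_010477) encodes Hsp60, the chamber in which proteins fold in the mitochondrial matrix. Its log2 ratio was 0.43 ± 0.12 (SD, n = 8) in air, 0.32 ± 0.15 (SD, n = 8) in CB and 0.23 ± 0.24 (SD, n = 7) in DEP mice. The lowest air mouse was at 0.29, and 4 of 7 DEP mice lay under it, at −0.04, 0.06, 0.07 and 0.11, as did 5 of 8 CB mice, at 0.15 to 0.29, while the highest value of all, 0.66, was in DEP mouse 444. The log2 fold change after DEP was −0.20 (95% confidence interval −0.40 to −0.00), with the 1 unadjusted p under 0.05 among the members (0.0466) and an adjusted p of 0.997 from limma. It was 0.01 within the second exposure round and −0.25 within the third, and −0.15 with the round as a block. The Hspd1 spot was saturated in Cy5 on 4 of 23 arrays (2 air and 2 DEP). The fold change after DEP was −0.19 with saturated spots left out and −0.17 with the deposited ratios. In both of these settings 0 of 8 members passed the unadjusted threshold of 0.05 after DEP. With median centring it was −0.32, and 3 of 8 members passed. CB mice differed from air by −0.11 (SE 0.09, adjusted p = 0.909 from limma). The reference signal of the spot was higher by 0.34 (unadjusted p = 0.0434, adjusted p = 0.9997) on DEP arrays, and the Cy5 signal alone gave 0.16.

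Hspe1 (NM_008303) encodes Hsp10, the lid of the Hsp60 chamber. The log2 ratio was 0.24 ± 0.21 (SD, n = 8) in air, 0.09 ± 0.38 (SD, n = 8) in CB and 0.09 ± 0.32 (SD, n = 7) in DEP mice. All 8 air mice were above 0, with mouse 49, whose Cy5 spot was saturated, at 0.69 and the others at 0.06 to 0.29. Of the CB mice 4 of 8 and of the DEP mice 3 of 7 were below 0, and the highest CB mouse, 0.76, was above every air mouse. With the deposited ratios most mice of each group, air included, were below 0. Against air, the CB mean differed by −0.15 (SE 0.15, limma adjusted p = 0.922) and the DEP mean by −0.15 (SE 0.15, adjusted p = 0.997). Of the DEP spots above 0, those of mice 51 (0.33) and 57 (0.36) were saturated in Cy5. That of mouse 55 (0.24) was weak in both channels. With saturated spots left out the differences were −0.08 after CB and −0.19 after DEP.

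The precision of these values was limited by the number of arrays. The standard error of a member's difference from air had a median of 0.16 after CB and 0.17 after DEP, against 0.12 and 0.13 over all features. The widest intervals, those of Hsp90aa1, ran from 0.628-fold to 1.15-fold of air after CB and from 0.843-fold to 1.57-fold after DEP. For Hspd1, the narrowest, they ran from 0.809-fold to 1.06-fold and from 0.755-fold to 0.998-fold. The p-values that missed the threshold do not show that the groups were alike.

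Most of the members had a larger SD between mice than the median feature. With group means removed, the SD over the 23 mice was 0.46 for Hsp90aa1, 0.43 for Hsph1, 0.41 for Hspa1a, 0.38 for Hspb1, 0.31 for Hspe1, 0.30 for Hspa8, 0.24 for Dnajb1 and 0.17 for Hspd1, where the median feature had 0.24. A larger SD was found for 8.77% of all features in the case of Hsp90aa1 and for 86.7% in the case of Hspd1. Accessions spotted 8 or more times on the array (47 of them) gave the spread within an array: the median SD between spots was 0.22, and 0.15 for the 21 with a mean Cy5 signal over 1000. Hspb7, a small heat shock protein of muscle with 11 such spots, had 0.23 at a mean Cy5 signal of 223.

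**Figure D3:**
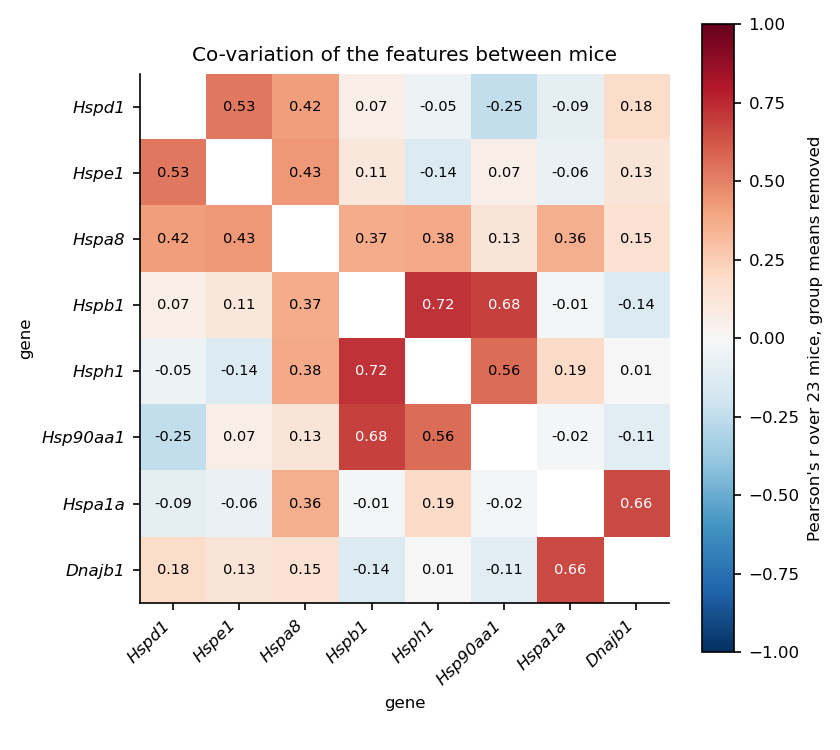
Pearson's r between the log2 ratios of each pair of features over 23 mice, with group means removed (both axes, genes; colour scale from −1 to 1). Hspb1, Hsph1 and Hsp90aa1 form 1 block of 0.56 to 0.72, and Hspa1a with Dnajb1 (0.66) and Hspd1 with Hspe1 (0.53) stand as pairs.

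The highest correlations between mice were among Hspb1, Hsph1 and Hsp90aa1 and between Hspa1a and Dnajb1. Their calls did not hold once the exposure round was removed and mice were permuted within rounds only. With only the group means removed, over the 28 pairs, r ran from −0.25 to 0.72 with a median of 0.13, and 4 pairs passed an adjusted p of 0.05 in a two-sided permutation test with 100000 resamples (2 pairs by Spearman's rho). This test shuffles mice across exposure rounds, and a level that differs between rounds enters its p-values. With the round removed as well and mice permuted within rounds, 0 pairs passed: the adjusted permutation p was 0.0721 for Hsp90aa1 and Hspb1 (r = 0.59) and for Hspa1a and Dnajb1 (r = 0.68), and 0.0767 for Hsph1 with Hspb1 (r = 0.61) and with Hsp90aa1 (r = 0.55). For Hspa1a and Dnajb1 r was 0.66 before the round was removed. Shuffling within rounds also leaves fewer arrangements of the mice, and the parts of the 2 changes in the p-values were not tested. The values that follow are those with the group means alone removed. Hsph1 and Hspb1 had r = 0.72 (permutation p = 8e-05, adjusted over the 28 pairs 0.00224) and rho = 0.76 (p = 0.00012, adjusted 0.00336). Hsp90aa1 and Hspb1 had r = 0.68 (p = 0.00028, adjusted 0.00392) and rho = 0.60 (p = 0.00252, adjusted 0.0353). For Hsph1 and Hsp90aa1 r was 0.56 (p = 0.00529, adjusted 0.0370) and rho 0.52 (p = 0.0108, adjusted 0.101). All 3 pairs kept r at 0.59 to 0.77 without the 2 mice farthest from the median of the first gene. The adjusted p of Hsph1 and Hsp90aa1 missed 0.05 without any 1 of air mice 443, 50, 442 and 835433, CB mouse 835436 (0.129) and DEP mice 55 and 835434, and without the weak spots (0.0650), and r was 0.48 to 0.66 over all mice left out in turn. Among all features, 0.0963% had as high an r to Hsph1 as Hspb1 did, and 0.123% as high an r to Hsp90aa1.

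Hspa1a, the Hsp70 that Dnajb1 serves, had r = 0.66 with Dnajb1 (permutation p = 0.00063, adjusted 0.00588) and rho = 0.47 (p = 0.0235, adjusted 0.156). Air mouse 443 was highest for both genes, at 1.18 and 0.70, and without it r was 0.47 (permutation p = 0.0285, adjusted 0.158), so the adjusted call rested on that mouse. Without the 2 mice farthest from the Hspa1a median, 443 and 53, r was 0.56. With both mice included, 0.0749% of all features had as high an r to Dnajb1 and 0.203% as high an r to Hspa1a. The mitochondrial partners Hspd1 and Hspe1, which share a promoter stretch, had r = 0.53 (p = 0.00913, adjusted 0.0511) and rho = 0.43 (p = 0.0391, adjusted 0.156), 0.34 without the 2 mice farthest from the Hspd1 median, and 0.75 (adjusted 0.00504) with saturated spots left out. The pair passed without any 1 of air mice 53 and 49, CB mice 47, 48 and 58 and DEP mouse 51. With all mice, 0.621% of all features had as high an r to Hspd1 and 4.5% as high an r to Hspe1. Hspa8 had r of 0.36 to 0.43 with 5 features and of 0.13 and 0.15 with Hsp90aa1 and Dnajb1, and none of its pairs passed. It did pass with Hsph1 when saturated spots were left out (r = 0.67, adjusted permutation p = 0.0311, 15 mice) and with Hspb1 without CB mouse 47 (r = 0.55, adjusted 0.0494).

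**Figure D4:**
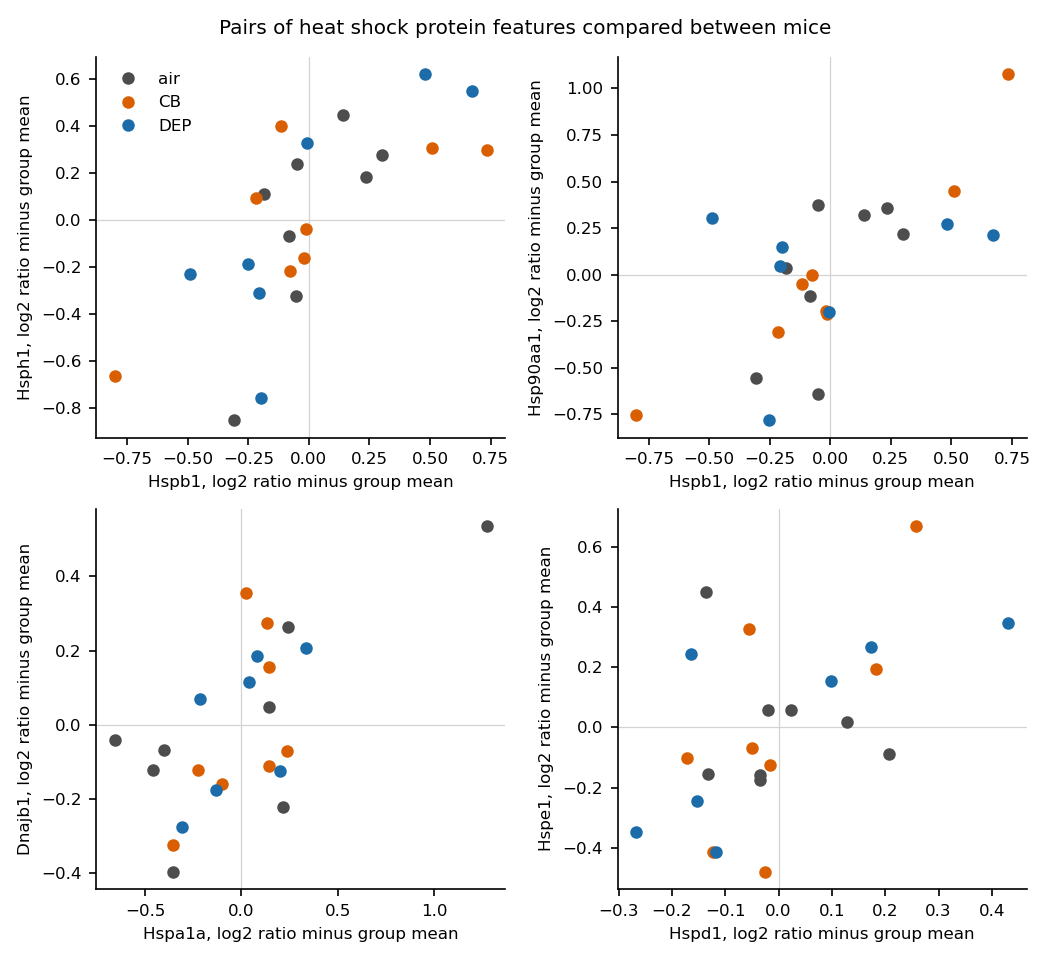
Log2 ratio minus the group mean in each of 23 mice (both axes) for 4 pairs: Hspb1 with Hsph1, Hspb1 with Hsp90aa1, Hspa1a with Dnajb1 and Hspd1 with Hspe1. The Hspb1 pairs rise over the whole cloud of points, and 1 air mouse lies apart at the upper right of the Hspa1a and Dnajb1 panel.

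The correlations were not equally strong in every round of exposure or channel. Within the second round (12 mice) r was 0.42 for Hsph1 and Hspb1, 0.63 for Hsp90aa1 and Hspb1, 0.77 for Hsph1 and Hsp90aa1, 0.63 for Hspa1a and Dnajb1 and 0.60 for Hspd1 and Hspe1. Within the third (7 mice) the values were 0.77, 0.26, 0.65, 0.12 and 0.72, and in neither round did a pair pass after adjustment. With the Cy5 signal alone the 5 values were 0.21, 0.09, 0.43, 0.22 and 0.25, and 0 pairs passed. The features of a mouse share 1 array and its reference signal, and the part of the array in the correlations was not tested. For Hspa1a and Dnajb1, r was 0.26 with median centring.

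Hsp90aa1 was the most variable member, and the 5 features with the highest r to it over the 23 mice were Atp6v1d (0.77), Msantd4 (0.76), Cblif (0.75), Pcnp (0.75) and Eml3 (0.75). They are given as a description, with no test, out of 18688 features.

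The mice were exposed in 3 rounds, of 4, 12 and 7 mice, with 2, 4 and 2 air, 1, 6 and 1 CB and 1, 2 and 4 DEP mice. In a limma fit with the exposure group as a covariate, 0 of 8 members were called between rounds (0% of all features), and 4 of 8 had an unadjusted p under 0.05 against 6.28% of all features. These were Hspb1 (limma adjusted p = 0.694, unadjusted 0.00134), Hsph1 (0.710 and 0.00620), Hspa8 (0.774 and 0.0328) and Hsp90aa1 (0.778 and 0.0412).

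Hspb1 had a mean of 0.08 ± 0.27 (SD, n = 4) in the first round, −0.45 ± 0.19 (SD, n = 12) in the second and −0.60 ± 0.42 (SD, n = 7) in the third. Hsph1 had 0.14 ± 0.07, −0.09 ± 0.28 and −0.57 ± 0.48 in the 3 rounds, and Hspa8 had 0.21 ± 0.28, 0.10 ± 0.27 and −0.23 ± 0.26. Hsp90aa1 was highest in the first round, −1.83 ± 0.27, and lay at −2.47 ± 0.36 and −2.30 ± 0.57 in the others. Its unadjusted limma p between rounds rose to 0.435 with saturated spots left out and to 0.369 without CB mouse 445. For Hspa1a, Dnajb1, Hspd1 and Hspe1 the unadjusted p was 0.239 to 0.908. Between the third and the second round 6 of 8 members were lower in sign (54.6% of all features), and 2 of 8, Hsph1 (−0.49, SE 0.17) and Hspa8 (−0.34, SE 0.13), were lower with an unadjusted limma p under 0.05 (3.57%).

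**Figure D5:**
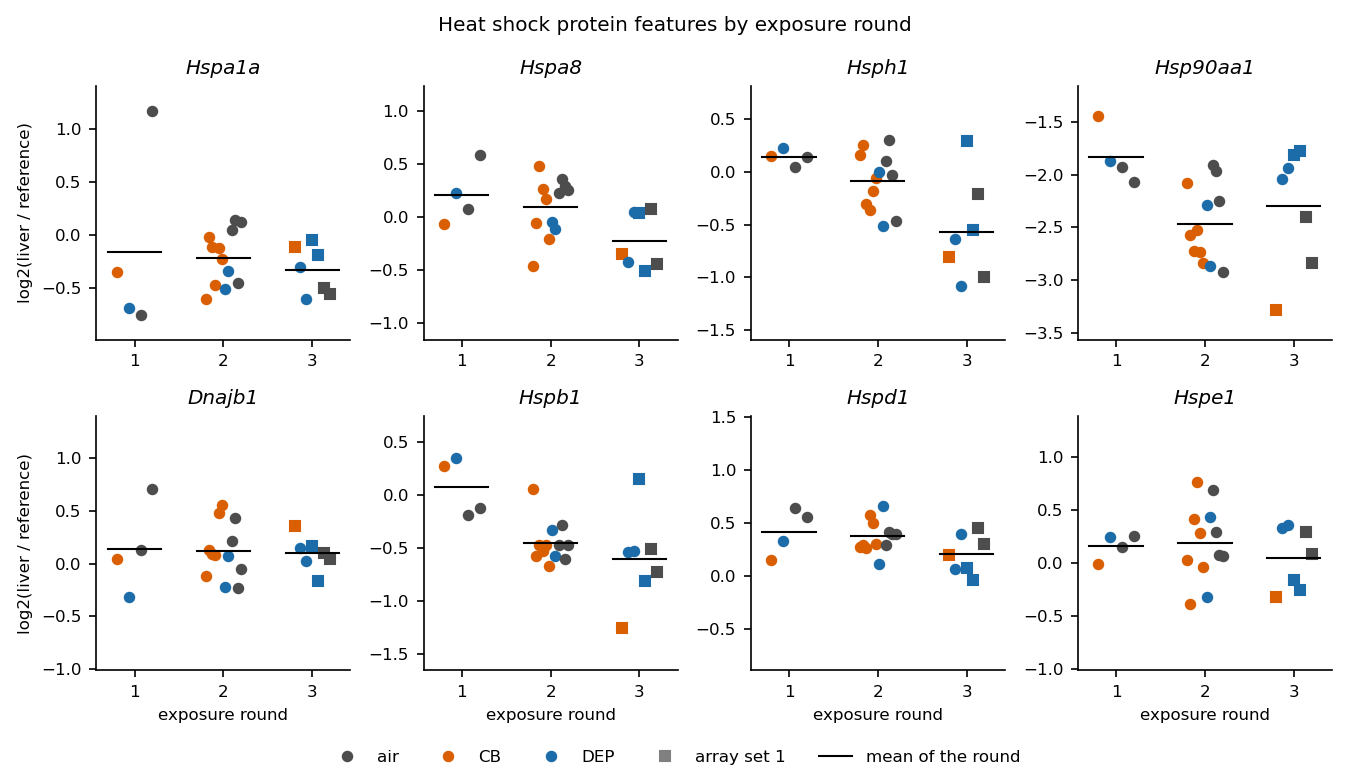
Log2 ratio of each feature (vertical axis) by exposure round (horizontal axis), coloured by exposure group, with the mean of the round as a line. Squares are arrays of the first array set, which held third-round mice alone; the third-round means of Hsph1 (−0.57) and Hspa8 (−0.23) lie below those of the second round (−0.09 and 0.10), and the points of both rounds overlap.

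The third round and the first array set overlapped. Of 5 array sets, read from the runs of slide numbers, the first held 5 mice, all of the third round, and the other 2 third-round mice were in other sets. For Hsph1 these 2 mice were at −0.64 and −1.08, within the span of the 5 others (−0.99 to 0.29) or below it. With the array set as a second block the unadjusted p was 0.00519 for Hsph1, 0.00811 for Hspb1, 0.0420 for Hsp90aa1 and 0.168 for Hspa8, against 12% of all features under 0.05. With median centring 0 of 8 members had an unadjusted p under 0.05, where 9.2% of all features did.

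The wider chaperone network, in lists chosen by function, gave 0 called genes as well. Of the 65 measured genes, 3 after CB (against 5.94% of all features) and 1 after DEP (against 4.82%) had an unadjusted p under 0.05, shares that lay below those of all features. They were Clpp, a protease of the mitochondrial matrix (−0.21 after CB, SE 0.08, limma adjusted p = 0.827), and the endoplasmic reticulum chaperones Hsp90b1 (−0.22 after CB, adjusted p = 0.838), Hspa5 (−0.34 after CB, adjusted p = 0.838) and Pdia4 (0.25 after DEP, adjusted p = 0.997). Hspa5, or BiP, is the Hsp70 of the endoplasmic reticulum and Hsp90b1 its Hsp90. Of the 7 endoplasmic reticulum genes, 5 were below air in sign after CB and 5 after DEP (49.8% and 50% of all features), with medians of −0.16 and −0.13.

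Other Hsp70 and Hsp110 relatives had a median of −0.01 after CB and 0.02 after DEP over 7 genes, among them Hspa4 (0.17 and 0.02) and Hspa2 (−0.07 and −0.02). The 10 J-domain proteins had medians of 0.03 and 0.00, with Dnaja4 (0.16 and 0.14) flagged absent in Cy5 on 23 of 23 arrays. The 8 small heat shock proteins had −0.06 and −0.02, and Hspb9 (−0.24 and −0.19) the smallest p among them. For heat shock factors and cochaperones, 16 of 17 genes measured, the medians were 0.01 and 0.04. Chordc1, a cochaperone of Hsp90, had 0.21 and 0.04, and Hsbp1, a binding protein of heat shock factor 1, −0.12 and −0.12.

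The mitochondrial chaperones and proteases (9 of 10 measured) had medians of −0.08 after CB and −0.04 after DEP, with Hspa9, the mitochondrial Hsp70, at −0.16 (unadjusted p = 0.0523) and −0.05. The 8 subunits of TRiC, the cytosolic chaperonin, had −0.02 and 0.03, from Cct6a at 0.18 to Cct5 at −0.15 after CB. Between the members and these lists no difference was tested.

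In whole liver, fewer cells of a type and less RNA per cell cannot be told apart, so markers of each cell type are given, and their ranges overlapped between the groups. Summed over the markers and divided by the median signal of the array, macrophage markers (4 of 5 measured, none absent on all arrays) ran from 11.4 to 23.3 in air, 12.8 to 29.4 in CB and 10.6 to 40.9 in DEP mice. Endothelial markers (4 of 4) ran from 6.41 to 8.32, 5.69 to 8.80 and 6.10 to 8.90, and neutrophil markers (3 of 4) from 1.86 to 3.98, 1.99 to 8.82 and 2.10 to 6.67. Hba-a1, a haemoglobin of red cells saturated on every array, and Alas2 gave 124 to 253, 122 to 248 and 133 to 214. A signal at the scanner's maximum is the same on each array, so this range mostly follows the array median. Its overlap between groups therefore cannot compare the red cell content. Pancreatic acinar markers (3 of 4) ran from 3.02 to 6.31, 3.04 to 12.2 and 3.13 to 15.4, and hepatocyte markers from 513 to 713, 513 to 786 and 455 to 869. The hepatocyte sums share this limit in part: Alb was saturated in Cy5 on 23 arrays, Apoa1 on 20, and Tat and Cps1 on 8 each. No marker was called, and the smallest unadjusted p-values were those of Hba-a1 (−0.54 after CB, limma adjusted p = 0.634, and −0.57 after DEP, adjusted p = 0.997) and Alb (−0.67 after DEP, adjusted p = 0.997), both saturated in Cy5 on 23 of 23 arrays. Since a saturated Cy5 signal does not vary, the differences of Hba-a1 and Alb come from the reference channel and the normalization. They do not measure the liver level. The part of the cell types in the heat shock protein values was not tested.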

How the data were processed

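The authors amplified and labelled 2.5 µg of total RNA per mouse, hybridised it with the reference, read the spots with ImaGene 5.5, flagged spots absent against a negative control probe and applied lowess in R 2.4.1. Deposited per array were the Cy5 and Cy3 intensity, the absent flags (an other value, 0 or 1) and the authors' log2 ratio. Here loess (span 0.3) was applied to the raw log2(Cy5/Cy3) of the 18688 features with a listed gene, and 3887 features without one were left out. The deposited log2 ratios served as an alternative. One limma fit (limma 3.58.1, R 4.3.3) of the 3 groups gave 4 contrasts, with Benjamini-Hochberg adjustment over all features and a threshold of 0.05. The fit was checked on simulated data. Correlations were tested by permutation with NumPy, and SciPy ranked the values for Spearman's rho. Spots at the scanner's maximum count as saturated. Weakness in both channels was judged on the mean of log2 Cy5 and log2 Cy3, less the array's median. Spots more than 2 log2 units below the feature's median of that value count as weak.

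The precision is limited by the number of arrays. Array medians were 262 to 549 in Cy5 and 213 to 445 in Cy3. Mice were grouped by label, and mouse numbers name them and pair none. The p-values measure the spread between mice. The members, the chaperone lists and the genes named (the 8 members, and up to 4 of each list with the smallest p) were chosen with earlier results of these data known. Rounds, array sets, scalings, filters and single mice left out were tried as alternatives.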

Additional observations from a re-analysis of the deposited data

Results flagged for a closer look

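Of 24 sets of values tested (8 features in 3 groups), 2 held a mouse far from the others by Dixon's criterion, and chance gives about 1 in 20. Hspa1a in air mouse 443 was 1.18, with the next air mouse at 0.14 and a gap of 0.535 of the range against a critical value of 0.526. Hspe1 in air mouse 49 was 0.69, with the next at 0.29 and a gap of 0.629 of the range, and its Cy5 spot was saturated.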

How the results depend on the processing

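No member was called under any alternative run. Of the fold changes, 174 kept their direction and 18 reversed under settings other than leaving out a mouse. With the deposited ratios Hsph1 after CB was 0.020, with weak spots left out 0.016 and with array weights 0.051. With median centring Dnajb1 after CB was −0.26, Hsp90aa1 after DEP −0.030 and Hspb1 after DEP −0.045. With the Cy5 signal alone Hsph1 after CB was 0.14, Hspa8 0.13 after CB and 0.011 after DEP, Hspd1 after DEP 0.16 and Hsp90aa1 after DEP −1.65. With the round as a block Hspb1 after CB was 0.00098. Within the second round Hspb1 after CB was 0.015, Hspd1 after DEP 0.0087 and Hsp90aa1 after DEP −0.31. Within the third, Hspa1a was 0.42 after CB and 0.24 after DEP, and Hsph1 after DEP 0.10. The causes were not tested. With each mouse left out in turn, 352 values kept their direction and 16 reversed: the ranges after CB were −0.25 to 0.027 for Hspa1a, −0.13 to 0.088 for Hsph1, −0.14 to 0.082 for Hspb1 and −0.024 to 0.11 for Dnajb1, and after DEP −0.016 to 0.18 for Hspb1. The pairs past the threshold were 4, against 0 with Cy5 alone, 0 within the second round, 0 within the third, 0 with the round removed beside the group, 3 with weak spots left out, 5 with the deposited ratios, 6 with saturated spots left out, and 2 to 6 with a mouse left out, 2 without air mouse 443. With median centring 285 features, no member among them, were called after CB and 46 for both particle groups, and within the third round, with a single CB mouse, 50 after CB and 100 for CB against DEP. Leaving out weak spots, the array set as a second block, the round removed from the correlations and mice left out of the correlations were chosen after seeing the data. Normexp background correction was not run, since no background signal was used here. No paired analysis was possible because the groups share no replicate numbers, and blocks by exposure round, exposure day and array set were fitted instead.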
